A study of Homo sapiens with 6 samples.

Results

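The genes described here are 10 components, partners and transcriptional targets of the Hippo pathway, which ends in the coactivators YAP and TAZ and their DNA-binding partners of the TEAD family. They were taken as the rows of the deposited count table whose gene name is YAP1, WWTR1 (which encodes TAZ), TEAD1, LATS2, AMOTL2, AJUBA, CYR61, CTGF, ANKRD1 or AXL, that is, 10 of the 58735 genes of the table, and all 10 passed the filter on low counts that left 15430 genes for testing. MCF10A, in which the RNA was sequenced, is an established nonmalignant line of human breast epithelium. The siControl group was transfected with a nontargeting control pool of siRNA and the siDAB2IP group with siRNA directed against DAB2IP, a Ras GTPase-activating scaffold protein, with RNA collected 48 hours later and 3 libraries in each group. Both groups were grown in the same medium, which held 5% horse serum, insulin, EGF, cholera toxin and hydrocortisone. DAB2IP was targeted with a single siRNA reagent, so loss of DAB2IP and any other effect of that reagent cannot be told apart. The labels do not say whether the libraries came from separate cultures, and p-values measure only the spread between these samples, which may be technical.

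In the Hippo pathway, the MST kinases, encoded by STK3 and STK4, activate the LATS kinases, which phosphorylate YAP and TAZ and thereby keep them in the cytoplasm or mark them for degradation. When LATS is inactive, YAP and TAZ enter the nucleus, bind TEAD factors and switch on genes of growth, adhesion and the extracellular matrix, some of which encode inhibitors of YAP itself. In epithelial cells in culture the pathway responds to cell density, cell shape, attachment and serum, and because its main steps are phosphorylation and movement into the nucleus, mRNA levels report the amounts of the components and the output of the targets but not the activity of the kinases.

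The libraries held between 16353783 and 21916062 counts, and the limit set by finding no count, 3 counts, corresponded to 0.139 to 0.187 CPM (counts scaled to library size with TMM factors, the limit covering counting error only). DAB2IP itself fell from 91.6 ± 13.1 CPM in siControl to 25.1 ± 2.57 CPM in siDAB2IP libraries (SD, n = 3 each), a log2 fold change of −1.86 (SE 0.13, adjusted p = 9.7e-05 in edgeR's quasi-likelihood test). All 9 mammary epithelial markers fixed for the check of the cell line were detected, with a summed level of 2350 to 2950 FPKM (fragments scaled to gene length and library size) in siControl and 1160 to 1480 FPKM in siDAB2IP libraries. Of the 9, 4 were called lower, KRT5, KRT14, KRT6A and KRT17. The KRT17 call was kept in 1 of the 6 fits without 1 library (highest adjusted p = 0.102). The other 5 were not called, with log2 fold changes of 0.09 for CDH1, 0.09 for KRT8, 0.02 for KRT18, −0.40 for EPCAM and −0.57 for TP63. With the replicate block TP63 was called lower (adjusted p = 0.00456). The 10 markers of leukocytes, endothelium and fibroblasts summed to 15.0 to 25.2 FPKM in siControl and 13.1 to 17.6 FPKM in siDAB2IP libraries, with most of the sum from the fibroblast marker DCN, at 11.4 to 21.2 FPKM in siControl and 9.42 to 13.2 FPKM in siDAB2IP libraries. Of these markers, the fibroblast collagen COL1A1 rose (log2 fold change 0.78, adjusted p = 0.0129, with its call lost without siControl replicate 1 or 2, highest adjusted p = 0.067), DCN and the endothelial PECAM1 were called lower with the replicate block alone (adjusted p = 0.0247 and 0.0499, against 0.151 and 0.0919 without it), and the T cell marker CD3E was at 0 in all 6 libraries. The part of these marker differences in the results below was not tested.

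Of the 10 genes, only AMOTL2 passed the test over all genes, and it rose, while none fell. At an unadjusted p under 0.05, 2 genes were higher (AMOTL2 and WWTR1) and 2 lower (LATS2 and ANKRD1), where 14.5% of all genes were higher and 15.5% lower at that threshold. Over all 15430 genes tested, 6.55% were called higher and 7.65% lower in siDAB2IP libraries at an adjusted p under 0.05, or 1011 and 1181 genes. Without siControl replicate 1, 2 or 3 these totals were 434 and 752, 264 and 459, and 398 and 650. Without siDAB2IP replicate 1, 2 or 3 they were 658 and 856, 707 and 1019, and 1172 and 1352. Fewer calls without a siControl library were thus found over all genes, not only among the genes described here. The log2 fold changes of the 10 genes ranged from −0.97 to 0.64, with 5 above and 5 below 0, and their median was 0.06, against 0.01 over all genes. In CPM, the groups were separated for WWTR1 and AMOTL2, both higher in siDAB2IP libraries, and for no gene in the lower direction, where 17.6% of all genes were separated upwards and 18.3% downwards. The replicate numbers were taken to pair the libraries, and with the number as a replicate block 2 genes rose (AMOTL2 and CYR61) and 1 fell (ANKRD1), against 9.59% higher and 11.4% lower over all genes in that fit. As RNA was taken from whole cultures, a change in the share of cells that express a gene and a change in its RNA per cell cannot be told apart.

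**Figure D1:**
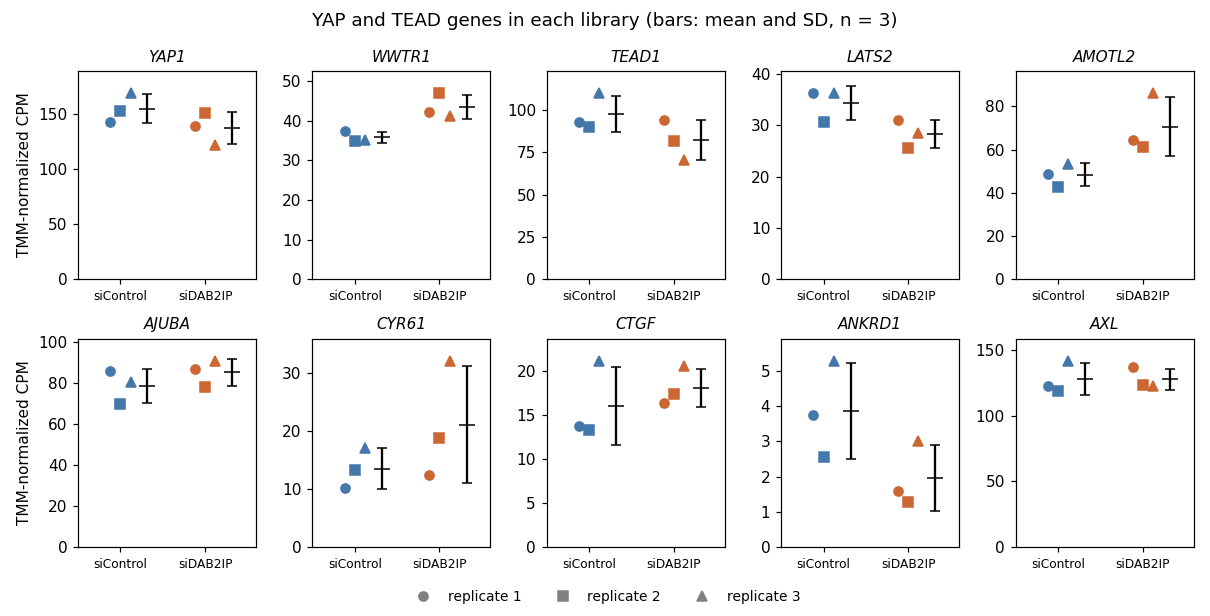
TMM-normalized CPM (vertical axis, starting at 0) of each of the 10 genes in each siControl (blue) and siDAB2IP (orange) library, with marker shape for the replicate number and bars for the mean and SD of 3 libraries. The groups are separated for WWTR1 and AMOTL2, and CYR61, CTGF and ANKRD1 are highest in replicate 3 of both groups.

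**Figure D2:**
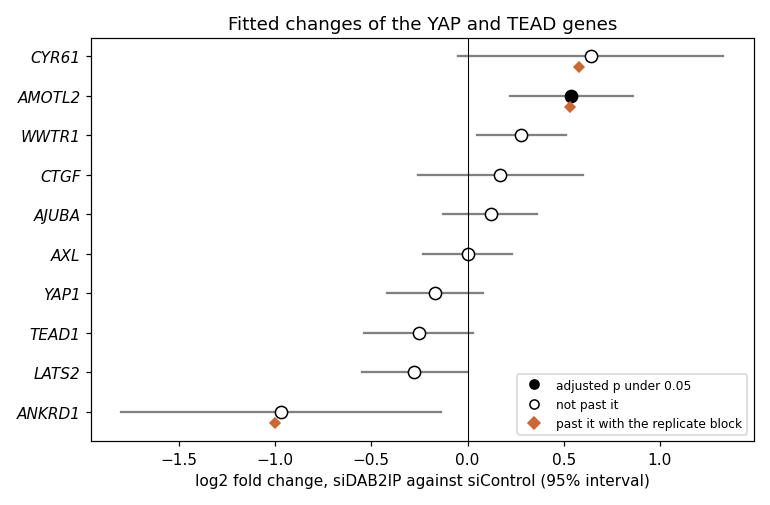
Log2 fold change (horizontal axis, siDAB2IP against siControl) of the 10 genes with the 95% confidence interval from edgeR, in the fit without and with the replicate block. AMOTL2 lies at 0.54 and is the one gene called in the fit without the block, whereas AXL lies at −0.00.

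Among the coactivators, YAP1 was the more abundant in MCF10A cells. YAP1 (ENSG00000137693, chr11:102110461-102233423, GRCh38, plus strand), which has no DNA-binding domain of its own and acts through TEAD factors, had 143, 153 and 169 CPM in siControl replicates 1, 2 and 3 and 139, 151 and 122 CPM in the siDAB2IP replicates. The groups overlapped, and the lowest value was that of siDAB2IP replicate 3. The log2 fold change was −0.17 (SE 0.11, 95% confidence interval −0.42 to 0.08, adjusted p = 0.338 in edgeR), so that an increase of YAP1 mRNA above 0.08 on the log2 scale lay outside the interval. WWTR1 (ENSG00000018408, chr3:149517235-149736714, minus strand), which encodes TAZ, the close relative of YAP, had 37.4, 34.9 and 35.2 CPM in siControl and 42.1, 47.0 and 41.3 CPM in siDAB2IP libraries. Every siDAB2IP library lay above every siControl library, with a mean of 43.4 ± 3.08 against 35.8 ± 1.37 CPM (SD, n = 3 each). The log2 fold change of 0.28 (SE 0.10, 95% confidence interval 0.05 to 0.51) had an unadjusted p of 0.0209 but an adjusted p of 0.0966 in edgeR (0.0756 with the replicate block), and it did not pass the test over all genes.

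Since a ratio inside a library needs no scaling between libraries, the coactivators were also compared with each other. The log2 ratio of YAP1 to WWTR1 counts was 1.93, 2.14 and 2.26 in siControl and 1.72, 1.68 and 1.57 in siDAB2IP libraries. All 3 siDAB2IP values were lower, with a mean of 1.66 ± 0.08 against 2.11 ± 0.17 (SD, n = 3 each), and the difference of −0.45 (SE 0.11) had p = 0.1 in a two-sided exact permutation test, the smallest p that 3 libraries against 3 can give (0.2 after adjustment over the 4 ratios compared). On the length-corrected scale, YAP1 made up 83.6%, 85.5% and 86.5% of the YAP1 and WWTR1 FPKM in siControl libraries and 81.5%, 81.1% and 79.8% in siDAB2IP libraries. The summed FPKM of both genes was 28.6 ± 1.91 in siControl and 26.7 ± 2.55 in siDAB2IP libraries, so the total overlapped while the makeup did not.

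**Figure D3:**
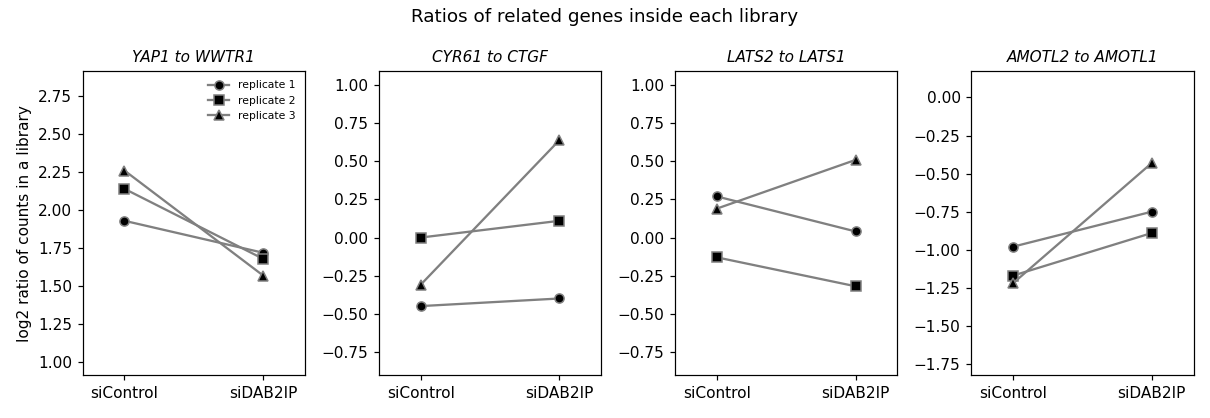
Log2 ratio of the counts of related genes (vertical axis) within each siControl and siDAB2IP library for YAP1 to WWTR1, CYR61 to CTGF, LATS2 to LATS1 and AMOTL2 to AMOTL1. The groups do not overlap for YAP1 to WWTR1, which is lower in siDAB2IP libraries, and for AMOTL2 to AMOTL1, which is higher.

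TEAD factors bring YAP and TAZ to DNA. TEAD1 (ENSG00000187079, chr11:12674591-12944483, plus strand) had 93.2, 90.2 and 110 CPM in siControl and 94.3, 81.5 and 70.6 CPM in siDAB2IP libraries. The groups overlapped through siDAB2IP replicate 1, and the differences between libraries of the same number were 0.02, −0.15 and −0.65 on the log2 CPM scale. TEAD1 had a log2 fold change of −0.25 (SE 0.13, 95% confidence interval −0.54 to 0.03, adjusted p = 0.212 in edgeR). Of the other TEAD genes, TEAD2 fell from 21.4 ± 3.52 to 12.6 ± 1.83 CPM (SD, n = 3 each), a log2 fold change of −0.76 (adjusted p = 0.0158), although its call was lost without siControl replicate 1 or 2 (highest adjusted p = 0.0599), and it overlaps CD37 on the opposite strand, from which it cannot be separated if strand was not used in counting. CD37 was at 3.32 CPM in siControl and 3.87 CPM in siDAB2IP libraries. TEAD4 had 18.9, 18.5 and 18.8 CPM in siControl and 15.4, 16.0 and 15.0 CPM in siDAB2IP libraries, which did not overlap but did not pass the test (log2 fold change −0.28, adjusted p = 0.153), and TEAD3 differed by 0.05 on the log2 scale (adjusted p = 0.887). In the length-corrected unit, TEAD1 stood at 9.44 FPKM, TEAD4 at 8.17, TEAD3 at 7.71 and TEAD2 at 7.12 FPKM in siControl libraries. In CPM, which is not corrected for length, TEAD1 had a siControl mean of 98.0, against 23.7 for TEAD3, 21.4 for TEAD2 and 18.7 for TEAD4. The deposited gene lengths were 10279 bases for TEAD1, 3046 for TEAD3, 2980 for TEAD2 and 2272 for TEAD4. Thus no single TEAD gene dominated in FPKM, whereas TEAD1 was the highest by far in CPM. TEAD1 supplied 29.2% of the summed TEAD FPKM in siControl and 29.5% in siDAB2IP libraries. That sum was 32.5 ± 2.3 FPKM in siControl and 26.7 ± 1.97 FPKM in siDAB2IP libraries (SD, n = 3 each), without overlap.

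**Figure D4:**
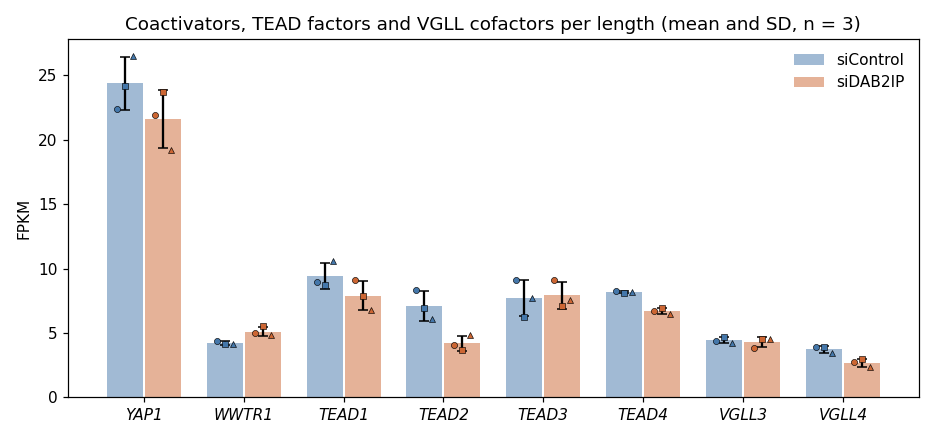
FPKM of YAP1, WWTR1, TEAD1 and further genes in siControl and siDAB2IP libraries. YAP1 has a siControl mean of 24.4 FPKM, TEAD1 one of 9.44 FPKM and WWTR1 one of 4.22 FPKM.

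In order of their siControl mean on the FPKM scale, the 10 genes ran from AXL (24.6) and YAP1 (24.4 ± 2.06, SD, n = 3) through AJUBA (13.0), TEAD1 (9.44 ± 1.04), AMOTL2 (8.02), CTGF (6.82), LATS2 (6.11), CYR61 (5.45 ± 1.41) and WWTR1 (4.22 ± 0.155) to ANKRD1 (1.93). AXL and YAP1 differed by less than their SD, and each pair of neighbors in this order from AMOTL2 down to WWTR1 differed by less than the larger of the SDs of the pair, though by more than the smaller. ANKRD1 lay below all of these by more than its SD. Among all genes tested, YAP1 and AXL were at the 89.5th and 89.6th percentile of siControl FPKM and ANKRD1 was at the 34.0th.

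LATS2 (ENSG00000150457, chr13:20973032-21061547, minus strand) encodes one of the kinases that phosphorylate YAP and TAZ and is itself a described YAP target. It had 36.3, 30.6 and 36.3 CPM in siControl and 31.0, 25.5 and 28.6 CPM in siDAB2IP libraries. The siDAB2IP library was lower than the siControl library of the same number in all 3 pairs, but the groups overlapped, since siDAB2IP replicate 1 lay just above siControl replicate 2. LATS2 had a log2 fold change of −0.28 (SE 0.12, adjusted p = 0.162 in edgeR, and 0.0806 with the replicate block). For its relative LATS1 the fold change was −0.22 on the log2 scale (adjusted p = 0.42), and the log2 ratio of LATS2 to LATS1 was 0.11 ± 0.21 in siControl and 0.08 ± 0.41 in siDAB2IP libraries (SD, n = 3 each). The difference in that ratio was −0.03 (SE 0.27, p = 1.0 in the exact permutation test), with a sign that depended on the library left out.

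AMOTL2 (ENSG00000114019, chr3:134355874-134375479, minus strand), which encodes an angiomotin, a junction protein that binds YAP and holds it in the cytoplasm and is a described YAP target, was the gene of the 10 that rose. It had 48.9, 42.9 and 53.5 CPM in siControl and 64.4, 61.0 and 86.2 CPM in siDAB2IP libraries. All siDAB2IP libraries lay above all siControl libraries, and replicate 3 was the highest in both groups. The mean rose from 48.4 ± 5.29 to 70.6 ± 13.7 CPM (SD, n = 3 each), or 1.46-fold, with a log2 fold change of 0.54 (SE 0.14, 95% confidence interval 0.22 to 0.86, adjusted p = 0.0335 in edgeR, and 0.00533 with the replicate block). This call rested on each siControl library, since the adjusted p was 0.108, 0.165 and 0.0648 without siControl replicate 1, 2 and 3, with log2 fold changes of 0.53, 0.45 and 0.61, and limma on FPKM gave adjusted p values from 0.0663 to 0.17. Its relative AMOTL1 had 106 CPM in siControl and 112 CPM in siDAB2IP libraries (log2 fold change 0.08, adjusted p = 0.677), whereas AMOT, the founding member of the family, was not tested, with 0.132 CPM in siControl and 0.0768 CPM in siDAB2IP libraries. The log2 ratio of AMOTL2 to AMOTL1 was −0.98, −1.17 and −1.22 in siControl and −0.75, −0.89 and −0.43 in siDAB2IP libraries. These did not overlap, and the difference of 0.44 (SE 0.16) again had the smallest possible p of 0.1 in the exact permutation test (0.2 after adjustment). AJUBA (ENSG00000129474, chr14:22971174-22982642, minus strand), a LIM protein that binds LATS kinases at junctions and restrains them, had 85.7, 69.4 and 80.3 CPM in siControl and 86.9, 77.9 and 90.6 CPM in siDAB2IP libraries. The groups overlapped, with a log2 fold change of 0.12 (SE 0.11, 95% confidence interval −0.13 to 0.36, adjusted p = 0.518).

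The secreted matricellular proteins CYR61 and CTGF, of the CCN family, are the most widely used readouts of YAP and TEAD. CYR61 (ENSG00000142871, chr1:85580761-85583962, plus strand) had 10.1, 13.3 and 17.1 CPM in siControl and 12.4, 18.8 and 32.1 CPM in siDAB2IP libraries. Each siDAB2IP library was higher than the siControl library of the same number, by 0.29, 0.50 and 0.91 on the log2 CPM scale, but the groups overlapped. The spread was wide, with a coefficient of variation of 25.9% in siControl and 47.8% in siDAB2IP libraries, against medians of 10.8% and 14.3% over all genes. Its log2 fold change was 0.64 (SE 0.31, 95% confidence interval −0.05 to 1.33) with an adjusted p of 0.198 in edgeR, whereas with the replicate block it was 0.58 with an adjusted p of 0.0249. Without siDAB2IP replicate 3, the library with the highest value, the log2 fold change was 0.21 (adjusted p = 0.574).

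CTGF (ENSG00000118523, chr6:131948176-131951373, minus strand) had 13.8, 13.3 and 21.2 CPM in siControl and 16.4, 17.4 and 20.6 CPM in siDAB2IP libraries. The groups overlapped because of siControl replicate 3, which was the highest of the 6. Its log2 fold change was 0.17 (SE 0.19, 95% confidence interval −0.26 to 0.60, adjusted p = 0.601, and 0.332 with the replicate block), and it ranged from 0.03 without siControl replicate 2 to 0.40 without siControl replicate 3. CYR61 and CTGF did not pass a test of their difference, as their log2 ratio was −0.25 ± 0.23 in siControl and 0.12 ± 0.52 in siDAB2IP libraries (SD, n = 3 each), a difference of 0.37 (SE 0.33, p = 0.3 in the exact permutation test, and 0.4 after adjustment).

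The promoter of CTGF is printed because it holds the TEAD motif more often than any other promoter window given for the 10 genes. TEAD factors recognize the letters GGAATG, or CATTCC on the other strand. In the 250 bases before the RefSeq start (GRCh38.p14, chr6:131951373-131951622, minus strand, 5′ to 3′, motif in capitals), it lies 169, 104 and 95 bases before the start.
CTGF promoter: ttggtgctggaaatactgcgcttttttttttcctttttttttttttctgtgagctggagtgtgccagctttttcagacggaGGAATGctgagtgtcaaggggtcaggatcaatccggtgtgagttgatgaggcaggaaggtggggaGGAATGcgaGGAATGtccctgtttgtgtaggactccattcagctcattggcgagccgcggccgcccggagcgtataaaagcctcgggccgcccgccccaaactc
At least 3 matches were present in 29 of 35116 RefSeq promoter windows of this length (0.0826%), and at least 1 match in 11.9%. Windows were given for 8 of the 10 genes, TEAD1 and CYR61 being those without, and at least 1 match lay in 6 of the 12 windows, which belonged to YAP1, AMOTL2, AJUBA, CTGF, ANKRD1 and AXL. The AP-1 motif TGANTCA lay in 1 of the 12 windows, that of ANKRD1, against 6.57% of all windows. AMOTL2, which rose, had 1 TEAD match and CTGF, which did not pass the test, had 3. A match describes letters and does not show that a factor is bound in these cells.

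ANKRD1 (ENSG00000148677, chr10:90912096-90921276, minus strand), a nuclear ankyrin repeat protein and a sensitive YAP target, was at low abundance and was the gene of the 10 with the most negative fold change. It had 3.74, 2.55 and 5.28 CPM in siControl and 1.58, 1.27 and 3.01 CPM in siDAB2IP libraries, from 60, 55 and 90 and from 28, 23 and 52 counts. In every pair of the same number the siDAB2IP library was lower, with differences of −1.24, −1.0 and −0.81 on the log2 CPM scale, although siDAB2IP replicate 3 lay above siControl replicate 2. The log2 fold change was −0.97 (SE 0.37, 95% confidence interval −1.80 to −0.14) with an adjusted p of 0.11 in edgeR, and with the replicate block it was −1.0 with an adjusted p of 0.0168. It ranged from −0.69 without siControl replicate 3 to −1.42 without siDAB2IP replicate 3, and only the latter of these 6 fits gave an adjusted p under 0.05 (0.0179). Its promoter window holds 2 TEAD matches and the AP-1 match, which lie 220, 128 and 195 bases before the RefSeq start and are shown here with their neighboring bases in GRCh38.p14 (minus strand, motif in capitals).
ANKRD1 TEAD, chr10:90921290-90921319: atcaccaccaaaGGAATGgccctctcacat
ANKRD1 AP-1, chr10:90921265-90921294: cacatttcttccTGATTCAcatattcagca
ANKRD1 TEAD, chr10:90921198-90921227: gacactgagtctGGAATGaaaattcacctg
The AP-1 stretch and the TEAD stretch nearer to the start overlap annotated GENCODE exons. For comparison, the single TEAD match of AMOTL2, also within an annotated exon, lies 69 bases before the second of its RefSeq starts.
AMOTL2 TEAD, chr3:134374499-134374528: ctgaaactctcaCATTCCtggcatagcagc
Of the genes with a TEAD match, AMOTL2 rose and the others did not pass the test. Their log2 fold changes were −0.17 for YAP1, 0.12 for AJUBA, 0.17 for CTGF, −0.97 for ANKRD1 and −0.00 for AXL. The part of the motif in these values was not tested.

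AXL (ENSG00000167601, chr19:41219203-41261766, plus strand), a receptor tyrosine kinase for GAS6, had 123, 119 and 142 CPM in siControl and 137, 124 and 123 CPM in siDAB2IP libraries. The means were 128 ± 12.4 and 128 ± 8.04 CPM (SD, n = 3 each). The log2 fold change was −0.00 (SE 0.10, 95% confidence interval −0.23 to 0.23, adjusted p = 1.0 in edgeR), an interval that reached 0.23 on the log2 scale in either direction. Among these 4 targets, the point estimates thus lay on both sides of 0, with CYR61 at 0.64, CTGF at 0.17, AXL at −0.00 and ANKRD1 at −0.97. AMOTL2 and LATS2, also described YAP targets, were at 0.54 and −0.28. CYR61, CTGF and ANKRD1 were each highest in replicate 3 of both groups, a difference between replicates that is shared by the groups.

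The upstream pathway was examined with a list of 40 further Hippo regulators, of which 37 were tested (AMOT, VGLL1 and VGLL2 were not). Of these, 3 rose, 5 fell and 29 did not pass the test, and with the replicate block 3 rose and 7 fell. Over all genes, 6.55% were called higher and 7.65% lower, and 9.59% and 11.4% with the block. The median log2 fold change of the list was −0.03, against 0.01 over all genes. Among the kinases, STK3 fell from 13.6 ± 0.755 to 7.16 ± 0.33 CPM (SD, n = 3 each), a log2 fold change of −0.93 (adjusted p = 0.00384). STK3 was at 12.8, 13.8 and 14.3 CPM in siControl and 7.05, 7.53 and 6.90 CPM in siDAB2IP libraries, so that the groups were far apart, and its call was kept whichever library was left out. Its partner kinase STK4 differed by −0.14 on the log2 scale (adjusted p = 0.481), and the adaptor SAV1 by 0.04 (adjusted p = 0.863). MOB1A, a coactivator of LATS kinases, fell by 0.58 on the log2 scale (adjusted p = 0.0306), but its call was lost whichever siControl library was left out (highest adjusted p = 0.0942). TAOK3, a kinase that acts in parallel to MST, rose by 0.56 (adjusted p = 0.0145), with its call lost without siControl replicate 2 or 3 (highest adjusted p = 0.0911). It overlaps the pseudogene RPS2P5 on the opposite strand, from which it cannot be separated if strand was not used in counting. RPS2P5 was the more abundant, with a mean of 94.1 CPM in siControl and 99.5 CPM in siDAB2IP libraries. TAOK3 had 22.1, 18.9 and 19.9 CPM in siControl and 27.7, 30.6 and 31.7 CPM in siDAB2IP libraries. NF2, the membrane-linked tumor suppressor merlin upstream of LATS, differed by 0.09 (adjusted p = 0.562).

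Of the 4 genes listed for YAP degradation, CSNK1E was called higher and BTRC lower, whereas their relatives CSNK1D (log2 fold change 0.08, adjusted p = 0.705) and FBXW11 (−0.27, adjusted p = 0.14) did not pass the test. CSNK1D overlaps SLC16A3 on the opposite strand. In siControl and siDAB2IP libraries SLC16A3 was at 1070 and 1410 CPM, and CSNK1D at 232 and 244 CPM. CSNK1E, a casein kinase that adds to the phosphorylation of YAP before its degradation, rose from 192 ± 6.84 to 290 ± 20.4 CPM (SD, n = 3 each), a log2 fold change of 0.60 (adjusted p = 0.00524). BTRC, the F-box protein that then recruits the ubiquitin ligase, had 18.1, 18.3 and 18.1 CPM in siControl and 10.5, 12.3 and 8.75 CPM in siDAB2IP libraries, and fell by 0.79 on the log2 scale (adjusted p = 0.00998). Both calls were kept whichever library was left out. FAT4, an atypical cadherin, rose from 8.11 ± 3.16 to 15.3 ± 3.73 CPM, a log2 fold change of 0.92 (adjusted p = 0.048), although its groups overlapped and its call was lost in 4 of 6 fits, those without siControl replicate 1 or 2 or siDAB2IP replicate 2 or 3 (highest adjusted p = 0.195). VGLL4, which competes with YAP for TEAD factors, fell by 0.48 on the log2 scale (adjusted p = 0.0354), with its call lost without siControl replicate 1, 2 or 3 or siDAB2IP replicate 1 (highest adjusted p = 0.127), and it overlaps ATG7 on the opposite strand. In siControl and siDAB2IP libraries ATG7 was at 19.3 and 18.4 CPM, and VGLL4 at 27.3 and 19.5 CPM. With the replicate block WTIP, an AJUBA relative, and TAOK1 were also called lower, with adjusted p values of 0.0458 and 0.0287 against 0.0514 and 0.0541 without it.

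**Figure D5:**
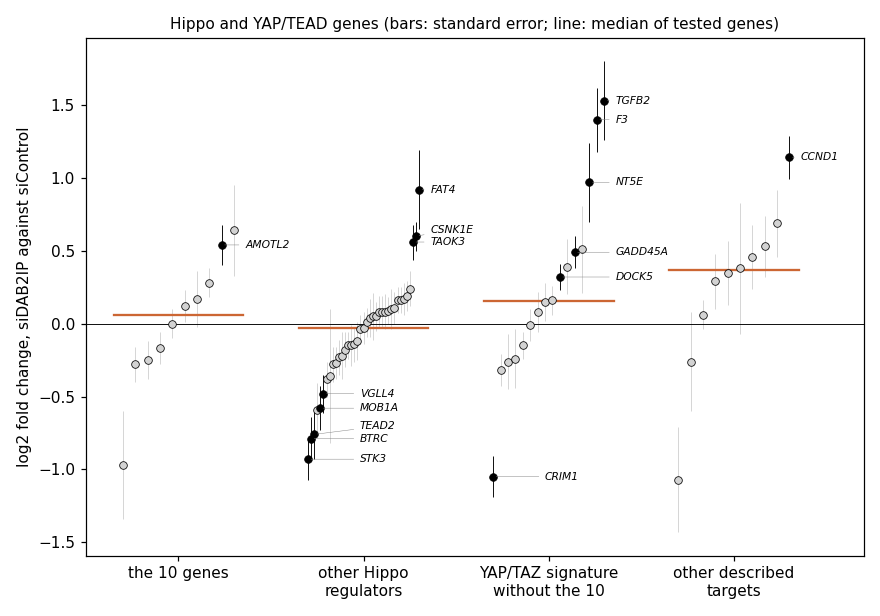
Log2 fold change (vertical axis, siDAB2IP against siControl) with its standard error for each tested gene of the 10 and of the lists of Hippo regulators, the published YAP/TAZ signature and other described targets, with called genes in black and named, and the median of each list as an orange line. The medians are 0.06, −0.03, 0.15 and 0.37.

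Further YAP and TEAD targets were examined with the 16 genes of a published YAP/TAZ target signature that are not among the 10, PTPN14 of which is also in the list of regulators, and with 10 other described targets. Of the 16, all tested, 5 rose, 1 fell and 10 did not pass the test (6.55% of all genes were called higher and 7.65% lower), with a median log2 fold change of 0.15. F3, the gene of tissue factor, had 55.5, 66.4 and 88.8 CPM in siControl and 132, 180 and 242 CPM in siDAB2IP libraries, and TGFB2, a TGF-β ligand, rose from 8.17 ± 2.18 to 23.6 ± 8.57 CPM (SD, n = 3 each). The log2 fold change was 1.40 for F3 (adjusted p = 0.00452) and 1.53 for TGFB2 (adjusted p = 0.00631), and both calls were kept whichever library was left out. In both genes replicate 3 was the highest in each group. GADD45A, a stress-induced growth arrest protein, rose by 0.49 (adjusted p = 0.0207), NT5E, the ectonucleotidase CD73, by 0.97 (adjusted p = 0.04), and DOCK5, a Rac exchange factor, by 0.32 (adjusted p = 0.0492), and these 3 calls were lost in 3, 4 and 5 of the 6 fits without 1 library, among them those without siControl replicate 1 or 2. CRIM1, a transmembrane protein that binds BMPs, went the other way, with 292, 297 and 312 CPM in siControl and 158, 166 and 113 CPM in siDAB2IP libraries (log2 fold change −1.05, adjusted p = 0.00225), a call kept whichever library was left out. It overlaps FEZ2 on the opposite strand, which was at 14.5 CPM in siControl and 16.3 CPM in siDAB2IP libraries. With the replicate block ASAP1 was also called lower (adjusted p = 0.026, against 0.0675 without it).

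Of the 10 other described targets, 1 rose, none fell in edgeR's test and 9 did not pass, with a median log2 fold change of 0.37. At an unadjusted p under 0.05 in that test, 3 were higher and 1 lower, where 14.5% of all genes were higher and 15.5% lower. CCND1, the cell cycle regulator cyclin D1, had 115, 141 and 156 CPM in siControl and 251, 322 and 339 CPM in siDAB2IP libraries, a log2 fold change of 1.14 (adjusted p = 0.00183) that was called whichever library was left out. It overlaps LTO1 on the opposite strand, which was at 31.9 CPM in siControl and 42.9 CPM in siDAB2IP libraries. With the replicate block THBS1, DLC1 and FSTL1 were also called higher (adjusted p = 0.0193, 0.0123 and 0.0194) and BIRC5 lower (adjusted p = 0.0276), where the fit without it gave 0.119, 0.0736, 0.197 and 0.0769. The fit with the block called 9.59% of all genes higher and 11.4% lower. Over these 26 targets, 6 rose and 1 fell, against 6.55% called higher and 7.65% called lower over all genes. Of their estimates, 18 lay above and 8 below 0, against 7884 and 7546 over all genes tested. Many of the 26 targets also respond to other pathways, and the part of YAP and TEAD in their changes was not tested.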

How the data were processed

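MCF10A libraries, 3 siControl and 3 siDAB2IP, were analyzed. The authors deposited counts of reads per gene, without normalization, and FPKM values, in which each count was divided by gene length and a scaled library total. The submitters' processing notes list STAR 2.6.1d, featureCounts 1.5.0-p3, DESeq2 1.20.0, edgeR 3.24.3 and hg38, and the strandedness of counting is not given in the sources used here. Coordinates are those of the deposited table. The study names a DESeq analysis of these libraries without its settings or threshold, and counts were tested here with edgeR 4.0.16 in R 4.3.3 (filterByExpr by group, TMM, glmQLFit and glmQLFTest, Benjamini-Hochberg over 15430 genes, called at adjusted p under 0.05), with a common biological coefficient of variation of 14.8%. Ratios used log2((count + 0.5)/(count + 0.5)) and two-sided exact permutation tests. The genes, lists and tests were chosen with earlier results of these data known. Named were the 10 genes, DAB2IP, 11 core regulators and the called genes of each list. Genes called only with the block, CSNK1D, FBXW11, CD3E, CDH1, KRT8, KRT18 and EPCAM were named after their values were seen. After subtraction of group means, log2 CPM of libraries with the same replicate number correlated at 0.26, 0.15 and 0.25 and of different numbers at −0.28 to 0.021, so the numbers, shared in the labels, were taken to pair the libraries. The subtraction ties these values together, so that higher ones for the same number go with lower ones for different numbers. The pairing was also inferred from the same counts that the fit with the block used. Alternatives were no filter, DESeq2 size factors, library size only, DESeq2 1.42.0, limma 3.58.1 on log2(FPKM + 1) and log2(FPKM + 0.1) for genes of mean FPKM of at least 1 or all genes with a count, the replicate block, and leaving out each library. The fit was tested on simulated counts with 200 changed genes. Promoters are from RefSeq. Protein sequences were not analysed here, and 1 gene of the other described targets and 1 of the markers of other cell types are not reported here and were left out of the counts of those lists.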

Additional observations from a re-analysis of the deposited data

How the results depend on the processing

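Over 14 alternatives, DAB2IP stayed called (log2 fold change −1.99 to −1.55), and YAP1 (−0.25 to −0.09), WWTR1 (0.22 to 0.32), TEAD1 (−0.36 to −0.16), LATS2 (−0.37 to −0.21), AJUBA (0.02 to 0.18) and CTGF (0.03 to 0.40) kept their sign and were never called. AXL, at −0.00, turned to 0.00 with DESeq2 size factors, 0.04 with library size only and 0.00 with the replicate block, and lay between −0.07 and 0.07 without 1 library. Of the 10 genes, 2 were higher and 1 lower with no filter on low counts (CYR61 called at adjusted p = 0.00273, ANKRD1 at 0.00905), 2 and 1 with the replicate block, 0 higher in the 3 limma fits on FPKM, and 0 to 1 higher and 0 to 1 lower without 1 library. Of the Hippo regulators, 1 was higher and 0 were lower in limma over all genes with a count, 2 were lower in each of the other limma fits, and 1 to 3 were higher and 2 to 5 lower without 1 library. Of the 26 other targets, 1 was higher in limma over all genes with a count, 2 were lower with no filter and with DESeq2, 3 were lower with the replicate block, and 3 to 6 were higher and 1 to 3 lower without 1 library. Over all 15430 genes tested, the replicate block called 1479 higher and 1754 lower, against 1011 and 1181 without it. Limma over all 29567 genes with a count called 176 and 202. Over 12412 genes, limma called 684 and 817 on log2(FPKM + 1), and 659 and 758 on log2(FPKM + 0.1). No filter gave 1245 and 1692 of 29567 genes, and DESeq2 gave 1098 and 1374. The difference in the LATS2 to LATS1 ratio lay between −0.25 and 0.16 without 1 library. The other ratios kept their direction, and the paired exact sign-flip test of 3 pairs gave 0.25 for the ratios of YAP1 to WWTR1, CYR61 to CTGF and AMOTL2 to AMOTL1, the smallest p that it can give. The cause of these shifts was not tested. Depth limits ANKRD1 most, at 23 to 90 counts per library, and with 3 libraries a group genes with a spread like that of CYR61 have wide intervals.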
